A study of Mus musculus with 9 samples.

Results

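The androgen dihydrotestosterone (DHT) was compared with no androgen in mouse prostate basal cell organoids that also received R-spondin1, across the transcriptome. The comparison rests on 6 of the 9 libraries of the series: 3 libraries titled RD7, which had DHT, and 3 titled R, which did not. Basal cells of the prostate had been sorted by flow cytometry from C57BL/6J mice, whose age the labels do not give, and were grown as organoids (small epithelial structures in culture) for 5 days. R organoids were grown in a basal medium (BM) with R-spondin1 at 500 ng/ml, and RD7 organoids in the same medium with R-spondin1 at 500 ng/ml and DHT at 100 nM. Both groups therefore shared EGF, the BMP antagonist Noggin, A83-01 (an inhibitor of the TGF-beta type I receptor), the ROCK inhibitor Y-27632, N-acetylcysteine and B27, and BM organoids had these without R-spondin1 or DHT. What DHT does without R-spondin1 was not measured, as every DHT library also had R-spondin1. The 3 BM libraries served to estimate the spread between libraries, and their values stand beside those of R and RD7 where they help to place a gene. Nothing in the labels ties the replicates to separate animals or cultures, and p-values then measure only how much these samples vary, which may be technical.

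DHT enters the cell and binds the androgen receptor, a transcription factor of the nuclear receptor family that then leaves its chaperones, moves to the nucleus and binds DNA as a dimer at androgen response elements. In the prostate, androgen sustains the luminal cells, which make the secretions of the gland, while the basal cells that lie beneath them carry keratins 5 and 14 and the transcription factor p63 and can give rise to luminal cells. R-spondin1, which was in the medium on both sides of the comparison, binds receptors of the Lgr family and keeps Wnt receptors at the cell surface.

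Expression is given in FPKM, which divides the reads of a gene by its length and by the library total and so lets levels of genes be compared per length. The ± after a mean FPKM is the SD over the 3 libraries of a group, a value on the log2 scale is the log2 fold change, RD7 minus R, with its standard error, and sets of 3 values follow the replicate numbers 1, 2 and 3. Between 15961444 and 23256007 reads were counted in the R and RD7 libraries, and 3 reads, the limit that a count of 0 allows for counting error alone, came to at most 0.188 CPM (reads scaled by library alone) in them. Markers of the labelled cell type were abundant in both groups, with 8 basal markers summing to 10510 to 11150 FPKM in R and to 8750 to 9854 FPKM in RD7, and 5 of them fell and none rose in the test described below. The 7 luminal markers summed to 2711 to 3207 FPKM in R and to 3783 to 4784 FPKM in RD7, and 4 of them rose and 2 fell. Of 7 leukocyte markers, Tyrobp was at 0 in every R and RD7 library and the sum was 2.89 to 3.80 FPKM in R and 2.16 to 4.09 FPKM in RD7. Outside that sum, Cd14, a monocyte marker, stood at 86.5, 94.2 and 76.4 FPKM in R and 35.7, 41.5 and 53.1 FPKM in RD7 and fell (-0.99 ± 0.18 on the log2 scale, limma adjusted p = 0.0022), and Csf1r, a macrophage receptor gene, stood at 2.91, 2.61 and 3.0 FPKM in R and 3.01, 1.76 and 2.1 FPKM in RD7 and was not called. The 4 endothelial markers, with Kdr at 0, summed to 0.271 to 0.536 FPKM in R and 0.196 to 0.295 FPKM in RD7. The 5 urothelial markers summed to 37.9 to 45.6 FPKM in R and 21 to 25.4 FPKM in RD7. Of the wider list of 9 urothelial markers tested, 2 rose and 4 fell. Its most abundant members were outside that sum: Psca, which encodes a surface antigen, rose from 249 ± 50.3 to 482 ± 151 FPKM, and Foxq1, a forkhead factor gene, stood at 102, 110.4 and 102 FPKM in R and 115, 112 and 104 FPKM in RD7 and was not called. Psca was not called without R 2 (0.096), R 3 (0.12), RD7 1 (0.054) or RD7 2 (0.13), with the limma adjusted p in brackets. The 6 mesenchymal markers summed to 19.9 to 24.4 FPKM in R and 64.1 to 91.8 FPKM in RD7, nearly all of it Dcn, which encodes the proteoglycan decorin and rose from 21.9 ± 2.71 to 76.6 ± 14.1 FPKM, while Col1a1 fell from 0.248, 0.177 and 0.295 FPKM in R to 0.0511, 0.00798 and 0 FPKM in RD7 and Col3a1 from 0.172, 0.337 and 0.362 to 0.0455, 0 and 0.0121 FPKM. Col1a1 was not called without R 1 (0.073), R 3 (0.1), RD7 2 (0.084) or RD7 3 (0.09), with the limma adjusted p in brackets. The part of these marker levels in the results was not tested. The 5 neuroendocrine markers stayed under 0.82 FPKM in sum, and the 5 seminal vesicle markers, with Svs6 at 0, under 1.11 FPKM. In bulk samples such as these, fewer cells of a type and less RNA per cell cannot be told apart.

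A large share of the transcriptome differed with DHT, in both directions. Of 15867 genes tested with limma on log2(FPKM + 0.5), 2121 rose (13.4%) and 2816 fell (17.7%) at a Benjamini-Hochberg adjusted p under 0.05. The strong changes leaned the other way. Among the genes that rose, 1084 rose by at least 2-fold on that scale, 247 by at least 4-fold and 44 by at least 16-fold. Among the genes that fell, 750 fell by at least 2-fold, 135 by at least 4-fold and 4 by at least 16-fold. Adding the pseudocount of 0.5 understates the change of genes near or below that level. Of the genes tested, 51.8% had no overlap between the 3 R and the 3 RD7 values, with RD7 above R for 21.7% and below R for 30.1%. For each of the 247 called genes of the 255 named by rule, the R and RD7 values did not overlap. The rule fixed this in part, as its rankings admitted only called genes without overlap. Among all calls, 2113 of the 2121 rises and 2799 of the 2816 falls had no overlap. Rose and fell are used only for genes called by this test, and where 5 or fewer members of a gene list rose or fell they are named, apart from genes not reported here, which names some genes after their values were seen.

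The balance of rises and falls depended on scaling, and the number of calls depended on single libraries. With FPKM divided by median-of-ratios size factors, 2551 genes rose and 2169 fell, so that 54% of calls were rises in place of 43.0%, and the median log2 fold change of all genes tested moved from -0.09 to -0.01. Genes called higher numbered 1398 without R 2 and 1335 without RD7 2, and genes called lower numbered 1765 without R 2, 1680 without R 3 and 1803 without RD7 2. Leaving out 1 library at a time, rises made up between 38.3% of calls (without RD7 1) and 47.5% (without R 1). Called in every setting tried were 951 higher and 1196 lower genes. Of the genes that are only listed by name in the counts of small numbers, Anxa8, Apoe, Basp1, Cs, Dlk2, F3, Fads1, H2-M3, Ifit3, Itgb8, Jag1, Jag2, Krtdap, Lgals7, Ndufs1, Pard6b, Plin2, Pmvk, Scd1, Slc30a4, Slc39a10, Sox2, Tm7sf2, Tob1 and Wnt9a lost their call under at least 1 alternative.

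**Figure D1:**
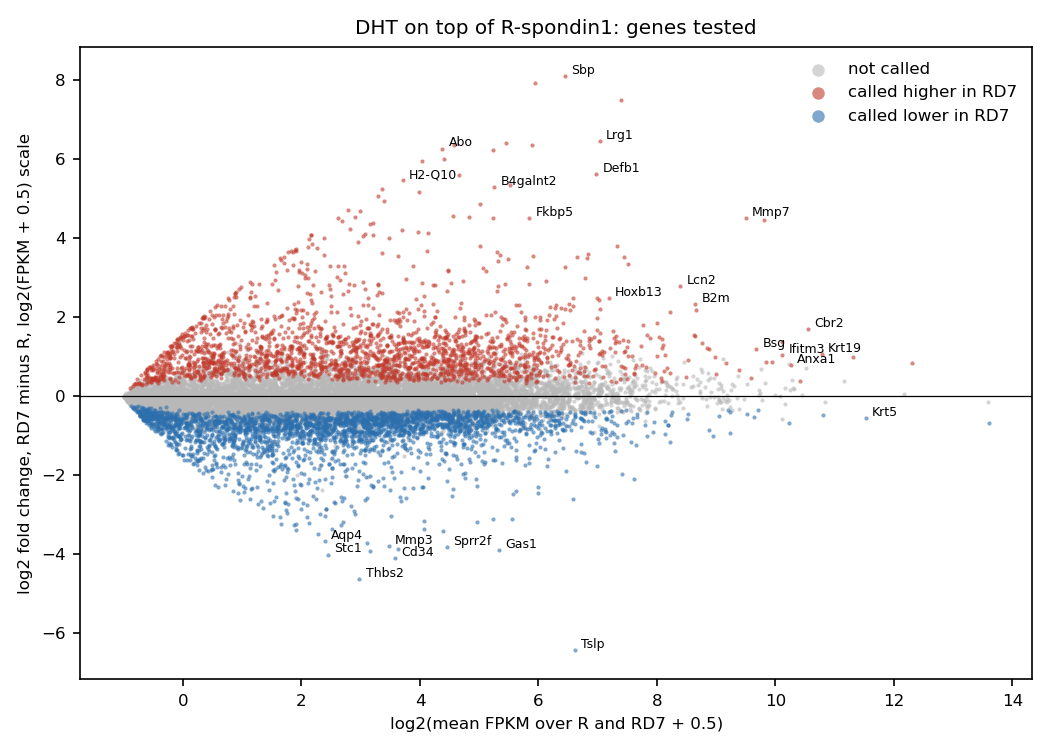
Each point is a gene tested: the horizontal axis is log2 of its mean FPKM over the R and RD7 libraries plus 0.5, and the vertical axis its log2 fold change, RD7 minus R. Red points are the 2121 genes called higher and blue points the 2816 called lower, and the highest points reach 8.11 (Sbp) while the lowest reaches -6.43 (Tslp).

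Most genes of the steroid hormone machinery were not called, which also held for all genes tested. Of 23 genes tested for steroid receptors, steroid enzymes and coregulators, 1 rose and 3 fell (median log2 fold change 0.03, against -0.09 for all genes tested). Both shares were under those of all genes, of which 13.4% rose and 17.7% fell, and the difference was not tested. Esr1, which encodes estrogen receptor alpha, fell from 2.71 ± 0.427 to 1.22 ± 0.17 FPKM (-0.90 ± 0.19, limma adjusted p = 0.0061), and Kdm1a, a histone demethylase that acts as a coregulator, fell from 32.9 ± 2.62 to 20.6 ± 3.04 FPKM (-0.67 ± 0.16, limma adjusted p = 0.0098). Nr3c1, the glucocorticoid receptor gene, stood at 4.55, 4.65 and 4.9 FPKM in R and 3.37, 2.6 and 3.73 FPKM in RD7 (-0.49 ± 0.15 on the log2 scale, limma adjusted p = 0.033), a fall that was lost without R 1 (0.079), R 2 (0.088), R 3 (0.11), RD7 1 (0.0502) or RD7 2 (0.12), with the limma adjusted p in brackets. The rise was that of Ncoa4, a receptor coactivator that also sends ferritin to lysosomes, from 13 ± 0.331 to 17.4 ± 0.602 FPKM (0.40 ± 0.12, limma adjusted p = 0.026), lost without R 1 (0.092), R 2 (0.072), R 3 (0.084), RD7 1 (0.058), RD7 2 (0.056) or RD7 3 (0.07). The falls numbered 5 with R and RD7 libraries only and 5 without BM 1.

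Genes that androgen and glucocorticoid receptors are both known to drive rose in a large share. Of 27 tested, 15 rose (55.6%, where 13.4% of all genes rose), 1 fell and 11 were not called, with a median log2 fold change of 0.95. Fkbp5 (chromosome 17, 28399094 to 28517527, GRCm38) encodes an immunophilin that sits with Hsp90 on steroid receptors. It read 4.22, 3.59 and 5.06 FPKM in R and 128, 103 and 97.4 FPKM in RD7, a 25.5-fold rise (4.52 ± 0.18 on the log2 scale, limma adjusted p = 9.2e-08). All RD7 libraries stood far above all R libraries. Zbtb16, which encodes the zinc finger repressor PLZF, was at 0, 0 and 0.00874 FPKM in R and 6.32, 4.31 and 5.13 FPKM in RD7 (3.50 ± 0.15 on the log2 scale, limma adjusted p = 9.6e-08). In R it was thus close to undetected, with 1 read in all, so that the ratio of reads, RD7 to R, was 1683 with a 95% counting interval from 302 to 66520. Rgs2, a brake on G-protein signaling, rose from 4.18 ± 0.356 to 25.3 ± 3.27 FPKM (2.46 ± 0.19, limma adjusted p = 6.5e-06). Sgk1, the serum- and glucocorticoid-regulated kinase, was at 39.5, 41.5 and 38.8 FPKM in R and 236, 232 and 185 FPKM in RD7 (2.42 ± 0.13 on the log2 scale, limma adjusted p = 4.2e-07). The fall in the list was Cebpb, a leucine zipper factor that shares 20.7% of its exon bases with Tmem189, from 434 ± 50.5 to 295 ± 57.5 FPKM (limma adjusted p = 0.039). That call was lost without any 1 of the libraries R 1 (0.1), R 2 (0.14), R 3 (0.053), RD7 1 (0.099) or RD7 3 (0.13), with the limma adjusted p in brackets.

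The broader list of androgen-response genes was mixed. Of 95 tested, 25 rose (26.3%, where 13.4% of all genes rose), 15 fell (15.8%, where 17.7% fell) and 55 were not called, and the median log2 fold change was 0.01. The count of falls was 8 without R 3, 9 without RD7 2 and 9 without RD7 3. Slc45a3, the transporter gene known as prostein in the prostate, shares 13.5% of its exon bases with Gm29103 and rose from 9.46 ± 0.36 to 68.9 ± 11.3 FPKM (2.79 ± 0.16, limma adjusted p = 9e-07). Acsl3, which activates long-chain fatty acids and is a well-known androgen target in human prostate cancer lines, instead fell from 41.2 ± 2.33 to 16.1 ± 1.64 FPKM (-1.34 ± 0.15, limma adjusted p = 0.00011). Its values of 39.9, 43.9 and 39.9 FPKM in R and 17.5, 14.3 and 16.5 FPKM in RD7 did not overlap.

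The letters of the androgen response element were looked up in promoters, because this is the sequence the receptor is known to bind. RefSeq promoters (GRCm38.p6, 250 bases before to 50 after the gene start) matched 10963 of the genes tested by symbol, 69.1%. The 15-letter palindrome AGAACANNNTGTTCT, searched on both strands, was found in the promoter of 1 of these genes, Sgk1. The 13-letter form GNACANNNTGTNC, which the longer form contains, was found for 19 of 1487 genes that rose (1.28%), for 2 of 1981 that fell (0.101%) and for 28 of 7495 not called (0.374%), against 0.447% of all 10963. The 6-letter form TGTTCT, which the longer form also contains, was found for 18.3% of genes that rose, 15.7% of those that fell, 14.4% of those not called and 15.2% of all. None of the 9 genes with a promoter among the 12 highest fold changes held the 13-letter form. These counts describe letters in a window of 300 bases and carry no test. Shown here are stretches of 120 bases upstream of 4 genes that rose, chosen after their values were seen, with the match to GNACANNNTGTNC in capitals. Counted from the gene start, they run from -242 to -123 for Sgk1 and from -148 to -29 for Mt1. Those of Serpina3n and Suox run from -132 to -13 and from -120 to -1.
Sgk1, chr10:21993648-21993767, plus strand: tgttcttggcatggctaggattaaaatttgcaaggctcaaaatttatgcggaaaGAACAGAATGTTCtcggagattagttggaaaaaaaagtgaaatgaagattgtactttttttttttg
Mt1, chr8:94178941-94179060, plus strand: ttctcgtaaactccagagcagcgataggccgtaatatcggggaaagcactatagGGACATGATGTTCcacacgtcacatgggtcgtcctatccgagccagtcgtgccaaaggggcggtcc
Serpina3n, chr12:104406576-104406695, plus strand: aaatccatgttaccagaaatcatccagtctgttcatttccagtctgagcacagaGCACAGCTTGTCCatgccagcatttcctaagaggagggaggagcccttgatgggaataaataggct
Suox, chr10:128673919-128674038, minus strand: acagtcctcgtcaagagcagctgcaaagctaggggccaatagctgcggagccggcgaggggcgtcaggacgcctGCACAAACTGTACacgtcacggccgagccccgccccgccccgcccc
The match begins 188 bases before the RefSeq start of Sgk1, 94 before that of Mt1, 78 before that of Serpina3n and 46 before that of Suox. Suox, which encodes sulfite oxidase, stood at 6.27, 6.15 and 5.19 FPKM in R and 57.4, 67.9 and 53.9 FPKM in RD7 (3.24 ± 0.14 on the log2 scale, limma adjusted p = 1.1e-07). Serpina3n, a secreted serine protease inhibitor, stood at 0.0304, 0 and 0.0671 FPKM in R and 5.63, 5.83 and 7.26 FPKM in RD7 (3.66 ± 0.15 on the log2 scale, limma adjusted p = 8.7e-08). Mt1, a metallothionein that binds zinc and copper, stood at 34.2, 19.7 and 20.7 FPKM in R and 98.9, 167 and 97.2 FPKM in RD7 (2.26 ± 0.35 on the log2 scale, limma adjusted p = 0.00094). In each of these 4 genes the lowest RD7 library was above the highest R library.

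Among protein-coding genes whose symbols do not start with Gm and a digit or end in Rik, and whose R and RD7 values do not overlap, the 12 with the highest fold changes, 11 of which are described here, encode secreted proteins, membrane and junction proteins, and enzymes that add sugars or sulfate, among others. Sbp (chromosome 17, 23941672 to 23945607) encodes spermine binding protein, a secretion of the mouse ventral prostate, and stood at 0.128, 0.205 and 0.0628 FPKM in R and 169, 161 and 191 FPKM in RD7 (8.11 ± 0.15 on the log2 scale, limma adjusted p = 5e-10). It was nearly absent in R, with all RD7 libraries above 160 FPKM. Lrg1, a secreted leucine-rich glycoprotein of the acute-phase response, rose 107-fold from 2.41 ± 0.326 to 259 ± 47.2 FPKM. Defb1, a beta-defensin, stood at 4.96, 4.68 and 3.76 FPKM in R and 211, 259.8 and 267 FPKM in RD7 (5.63 ± 0.21 on the log2 scale, limma adjusted p = 6.3e-08). Cldn10, a claudin that forms ion pores between cells, rose 124-fold from 0.943 ± 0.296 to 117 ± 13 FPKM.

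Abo, the glycosyltransferase of the ABO blood group, stood at 0, 0 and 0.0962 FPKM in R and 37.3, 37.7 and 46.7 FPKM in RD7 (6.27 ± 0.15 on the log2 scale, limma adjusted p = 4.2e-09). A4galt, which makes the glycolipid Gb3, stood at 0.173, 0.119 and 0.17 FPKM in R and 44.5, 40.6 and 38.4 FPKM in RD7 (5.99 ± 0.15 on the log2 scale, limma adjusted p = 4.2e-09). B4galnt2, which makes the Sd(a) antigen, stood at 1.46, 1.3 and 1.39 FPKM in R and 85.4, 65.1 and 71.8 FPKM in RD7 (5.30 ± 0.23 on the log2 scale, limma adjusted p = 1.2e-07), and the gene shares 15.3% of its exon bases with Gm11534, an antisense gene that rose from 1.71 ± 0.475 to 88.9 ± 13.1 FPKM. Because the library kit does not mark strand, reads of B4galnt2 and its antisense partner cannot be told apart where they overlap. Papss2, which makes the donor for sulfation, rose 94.5-fold from 0.516 ± 0.165 to 48.8 ± 9.98 FPKM. Also among the 12 were Chad, a leucine-rich matrix protein, Vsig8, an immunoglobulin-domain protein, and H2-Q10, a class I-like histocompatibility gene with close paralogs. Chad stood at 0, 0.102 and 0.11 FPKM in R and 45.1, 55 and 39.2 FPKM in RD7, Vsig8 at 0.433, 0.435 and 0.59 and 74.5, 83.3 and 63.9 FPKM, and H2-Q10 at 0.072, 0.089 and 0.0637 and 21.7, 25.5 and 27.9 FPKM, in the same order.

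**Figure D2:**
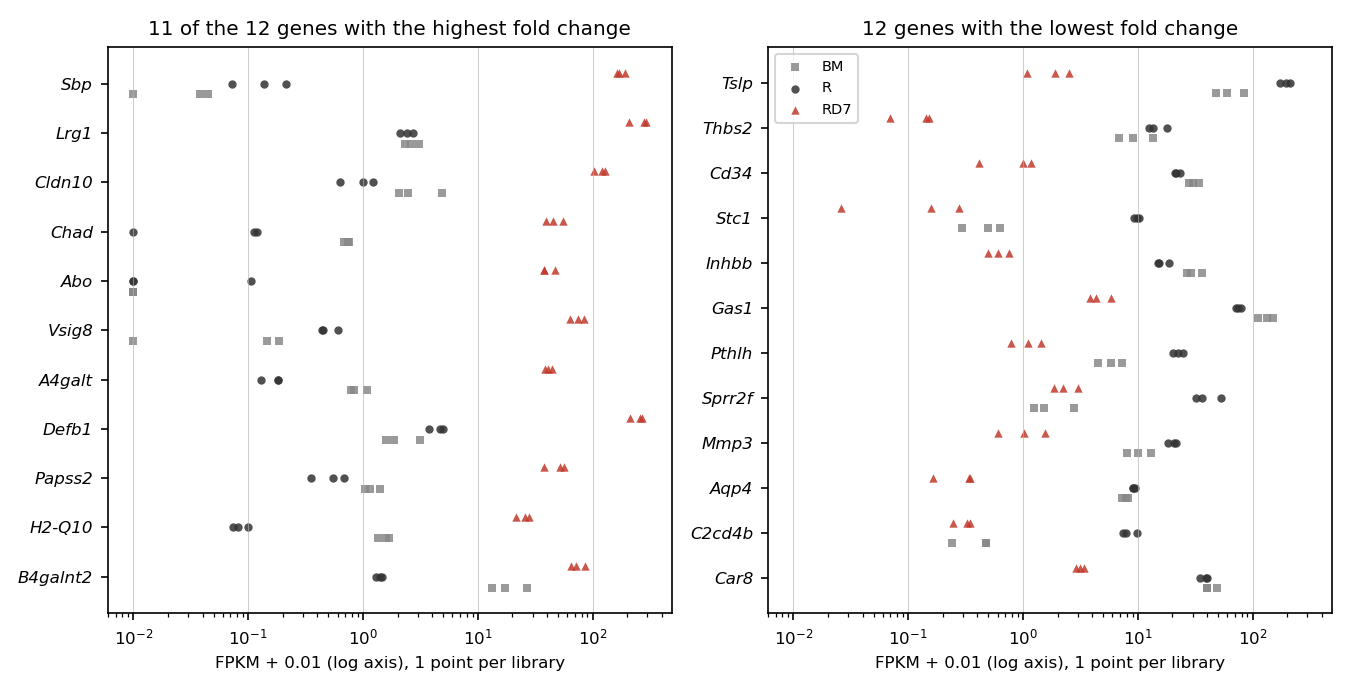
Each point is the FPKM of 1 library plus 0.01, on a log axis, for 11 of the 12 genes that the naming rule ranks highest by fold change (left) and the 12 with the lowest (right), with grey squares for BM, dark circles for R and red triangles for RD7. In every row the 3 RD7 points lie apart from the 3 R points, and for B4galnt2 the BM points, with a mean of 19.1 FPKM, lie between them.

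Some strong risers fell outside the naming rule and were singled out after their values were seen. 9530002B09Rik (chromosome 4, 122689275 to 122705129), a protein-coding gene that the rule leaves out because its symbol ends in Rik, had 0 reads in all R and BM libraries and 104, 138 and 126 FPKM in RD7, at least 1996-fold higher when R is set to the level of 3 reads over its libraries. Gm12873 (chromosome 4, 122778154 to 122793749), annotated as an unprocessed pseudogene, stood at 2.23, 0.509 and 1.75 FPKM in R and 285, 391 and 320.5 FPKM in RD7. Gm12872, another such pseudogene (chromosome 4, 122730284 to 122734733), had 0 reads in R and 10.3, 16 and 7.58 FPKM in RD7. These 3 lie near each other on chromosome 4, and as a pseudogene can share reads with a near-identical copy, the pseudogene values are uncertain. Agtr1a, an angiotensin II receptor gene, stood at 0.0762, 0 and 0 FPKM in R and 21.2, 16.7 and 20.9 FPKM in RD7, a ratio of reads of 977 with a 95% counting interval from 334 to 4741. Rasd1, a small GTPase gene that dexamethasone is known to induce, stood at 1.63, 1.68 and 1.55 FPKM in R and 52.3, 66.9 and 66 FPKM in RD7 (4.87 ± 0.16 on the log2 scale, limma adjusted p = 1.8e-08). The transcription factor gene Nkx2-6 had 0 reads in R and 7.64, 7.25 and 8.98 FPKM in RD7, at least 183-fold higher on the same reckoning. Tcf15, a helix-loop-helix factor, rose from 0.122 ± 0.106 to 13.9 ± 1.81 FPKM and Cited4, a transcriptional coactivator, from 2.76 ± 1.1 to 71.6 ± 12.1 FPKM. In all, 39 genes that rose had 0 reads in all R libraries and 15 genes that fell had 0 reads in all RD7 libraries. A gene with 0 reads in a group passes the filter on low values only through other groups, so these counts are a description.

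Prostate secretory genes rose in large number and by large folds. Of 18 tested, 13 rose (72.2%), 2 fell and 3 were not called, with a median log2 fold change of 2.54 (2.82 with the 3 members of 0 reads in R placed at their lower bound). A member that is read only in RD7 passes the filter on low values only through RD7, so that this count is a description. Without any 1 RD7 library, 12 members passed the filter and 7 rose. Next to Sbp, Azgp1, which encodes zinc alpha-2-glycoprotein, stood at 0.272, 0.641 and 0.402 FPKM in R and 12.3, 17.1 and 15.6 FPKM in RD7 (4.05 ± 0.25 on the log2 scale, limma adjusted p = 1.3e-06). Mme, the membrane peptidase neprilysin that luminal cells carry, stood at 0.0109, 0.0149 and 0.044 FPKM in R and 7.23, 6.37 and 5.83 FPKM in RD7 (3.73 ± 0.13 on the log2 scale, limma adjusted p = 3.8e-08). Defb50, a beta-defensin beside Defb1 on chromosome 8, had 0 reads in R and 5.09, 10.5 and 3.81 FPKM in RD7, at least 49-fold above the level of 3 reads. Its neighbour Defb2, singled out after its values were seen, stood at 0.205, 0 and 0.454 FPKM in R and 12.3, 16.5 and 9.9 FPKM in RD7. Apof, chosen likewise, had 0 reads in R and 4.81, 5.4 and 7.91 FPKM in RD7. Against this direction, Ltf, the iron-binding secretion lactoferrin, fell from 319 ± 8.78 to 171 ± 15.4 FPKM (-0.91 ± 0.12, limma adjusted p = 0.00028), and Gsdma, a gasdermin, fell from 7.16 ± 1.14 to 0.417 ± 0.0556 FPKM (-3.05 ± 0.18, limma adjusted p = 7.8e-07).

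Genes for folding and export of proteins from the endoplasmic reticulum rose in part. Of 44 tested, 11 rose (25%, where 13.4% of all genes rose), 0 fell and 33 were not called (median 0.29). The count of rises was 17 without BM 3 and 7 without R 2. Sec61b, a subunit of the translocation channel, stood at 22.1, 10.01 and 15.8 FPKM in R and 68, 119 and 58.9 FPKM in RD7 (2.32 ± 0.42 on the log2 scale, limma adjusted p = 0.0023). Agr2, a disulfide isomerase of secretory epithelia, rose from 18.5 ± 4.97 to 68.5 ± 12.9 FPKM (1.88 ± 0.37, limma adjusted p = 0.004). Pdia5, another isomerase, rose from 6.93 ± 0.0873 to 18.6 ± 2.29 FPKM, and Ssr4, part of the translocon-associated complex, from 12 ± 2.47 to 30.5 ± 6.06 FPKM.

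Luminal markers rose more often than they fell, but keratins 8 and 18, which define luminal cells, were not among those that rose. Of 24 luminal markers tested, 13 rose (54.2%, against 13.4% of all genes), 3 fell (12.5%, against 17.7%) and 8 were not called, with a median of 0.67. The falls were those of Cd24a, Gata3 and Krt18. Hoxb13, a homeobox gene of the prostate, stood at 45.6, 45.7 and 37.8 FPKM in R and 200.3, 259.5 and 279 FPKM in RD7, a 5.72-fold rise (2.49 ± 0.18 on the log2 scale, limma adjusted p = 3.5e-06). Krt8 stood at 655, 692 and 609 FPKM in R and 726, 936 and 789 FPKM in RD7 and was not called (0.32 ± 0.14 on the log2 scale, limma adjusted p = 0.1). Krt18 fell from 934 ± 97.6 to 653 ± 101 FPKM (-0.52 ± 0.17 on the log2 scale, limma adjusted p = 0.041), a call that was lost in 9 of 19 alternatives, among them leaving out BM 1 (0.052), R 1 (0.12), R 2 (0.14), R 3 (0.054), RD7 1 (0.12) or RD7 3 (0.093), with the limma adjusted p in brackets. Cd24a, a luminal surface marker, fell from 233 ± 15.6 to 149 ± 27.5 FPKM (-0.66 ± 0.16, limma adjusted p = 0.01). Krt19, a keratin of luminal and intermediate cells, was among the largest gains in level, from 1129 ± 105 to 2386 ± 342 FPKM (1.07 ± 0.16, limma adjusted p = 0.00077).

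Proximal luminal progenitor markers, of the cells near the urethra, also divided. Of 18 tested, 8 rose (44.4%, against 13.4% of all genes) and 5 fell (27.8%, against 17.7%). The falls, those of Basp1, Clu, Ltf, Lypd3 and Sox2, numbered 3 without R 1, R 2, R 3 or RD7 2. Aqp5, a water channel of glandular epithelium, stood at 9.43, 11.6 and 9.11 FPKM in R and 82.3, 116 and 106 FPKM in RD7 (3.27 ± 0.19 on the log2 scale, limma adjusted p = 8e-07). Cyp2f2, a cytochrome P450, stood at 25.9, 30.7 and 25.7 FPKM in R and 286, 331 and 346 FPKM in RD7 (3.52 ± 0.16 on the log2 scale, limma adjusted p = 2.1e-07). Ppp1r1b, a phosphatase inhibitor, rose from 26 ± 3.5 to 130.2 ± 17.2 FPKM. Cyp2f2 shares 13.5% of its exon bases with Gm15883 and Ppp1r1b 15.7% with 1700003D09Rik. Clu, which encodes the secreted chaperone clusterin and is known to rise in the prostate when androgen is withdrawn, was among the largest losses in level, from 796, 828 and 733 FPKM in R to 354, 408 and 489 FPKM in RD7 (-0.92 ± 0.16 on the log2 scale, limma adjusted p = 0.0018).

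Lineage transcription factors moved both ways. Of 67 tested, 13 rose (19.4%, against 13.4% of all genes) and 21 fell (31.3%, against 17.7%), with a median of -0.10, near that of all genes. Spdef, an Ets factor of secretory cells, stood at 2.41, 1.53 and 1.9 FPKM in R and 15.9, 17 and 17.2 FPKM in RD7 (2.83 ± 0.19 on the log2 scale, limma adjusted p = 2.5e-06). Among the factors that fell, Hey1, a Notch target and repressor, stood at 14.5, 15.9 and 13.9 FPKM in R and 2.65, 2.74 and 2.5 FPKM in RD7 (-2.28 ± 0.13 on the log2 scale, limma adjusted p = 5.7e-07). Barx2 fell from 5.78 ± 1.8 to 1.14 ± 0.395 FPKM, Pitx1 from 1.24 ± 0.254 to 0.0363 ± 0.0338 FPKM and Elf5, an Ets factor of glandular progenitors, from 2.12 ± 0.29 to 0.364 ± 0.0744 FPKM. The POU factor gene Pou3f1, singled out after its values were seen, fell from 6.13 ± 0.713 to 0.201 ± 0.181 FPKM (-3.27 ± 0.20, limma adjusted p = 1.3e-06).

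**Figure D3:**
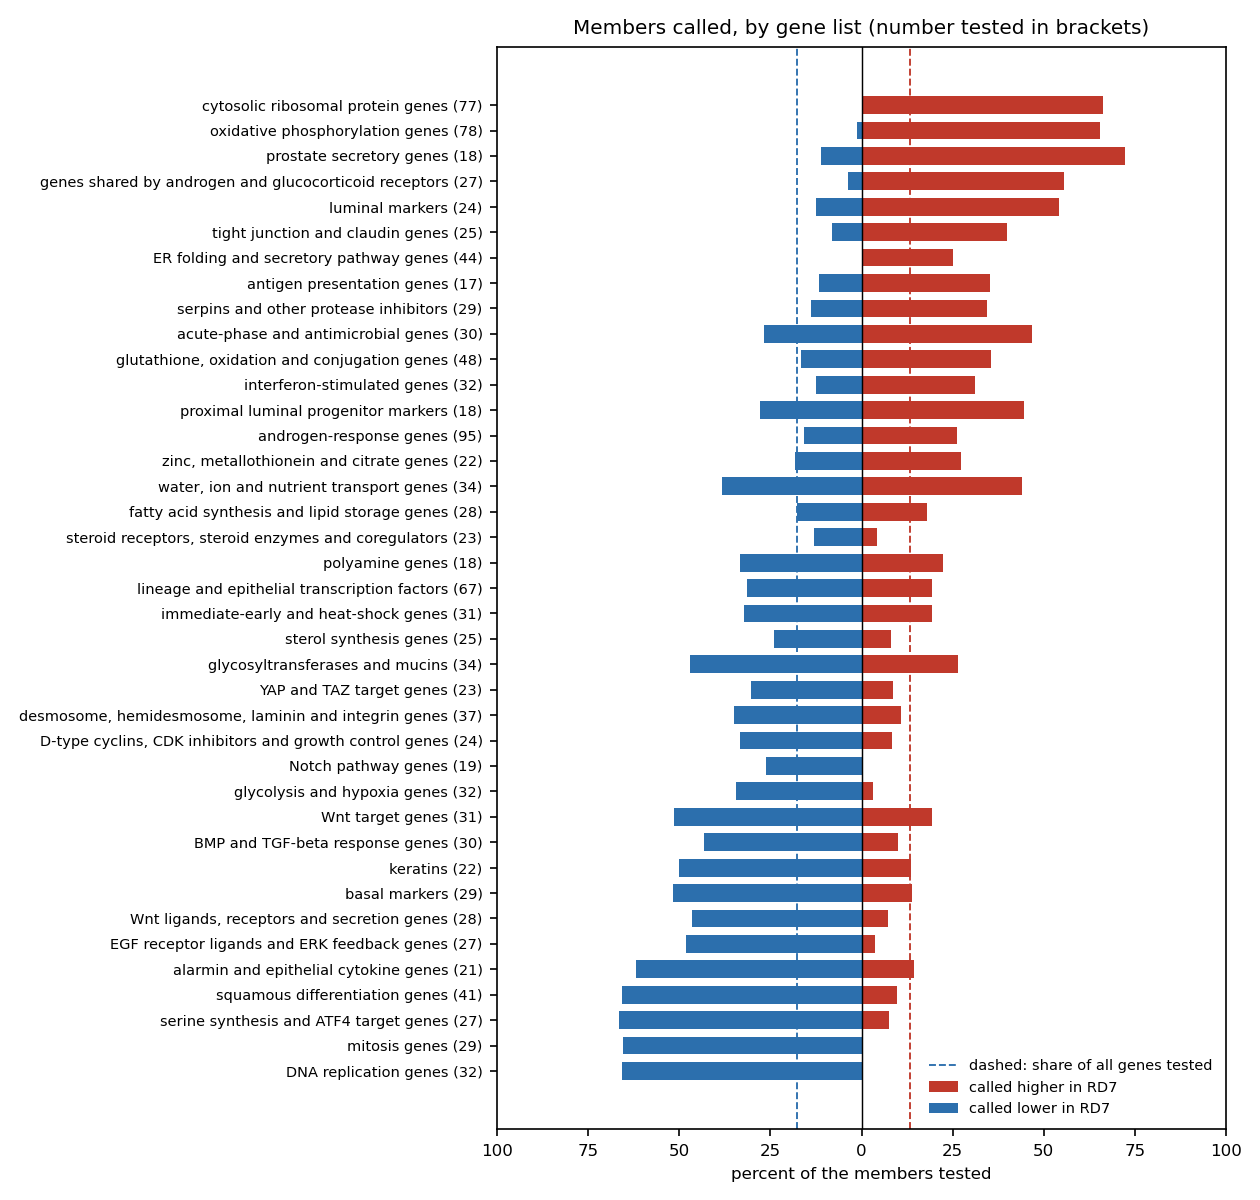
Bars give the percent of each list's tested members called higher (red, to the right) and lower (blue, to the left) in RD7, for the 39 lists with at least 15 members tested, and dashed lines give 13.4% and 17.7%, the shares of all genes tested. Ribosomal protein, oxidative phosphorylation and secretory genes stand at the top, and DNA replication and mitosis genes, with no member called higher, at the bottom.

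Basal markers fell more often than they rose, although Krt14 was not called. Of 29 basal markers tested, 15 fell (51.7%, where 17.7% of all genes fell) and 4 rose, with a median of -0.74, and the rises, those of Apoe, Cav1, Dlk2 and Lgals7, numbered 1 without R 3 or RD7 2 and 2 without BM 1, R 2, RD7 1 or RD7 3. Krt5 stood at 3510.3, 3417 and 3525 FPKM in R and 2442, 2292 and 2459 FPKM in RD7 (-0.54 ± 0.12 on the log2 scale, limma adjusted p = 0.0086), a fall that left it among the most abundant transcripts. Krt14 stood at 2011, 1997 and 1757 FPKM in R and 1588, 1864 and 1809.6 FPKM in RD7, with overlapping groups (-0.13 ± 0.13 on the log2 scale, limma adjusted p = 0.45). Trp63, the gene of p63, stood at 39.3, 39.3 and 54.2 FPKM in R and 33.4, 22.2 and 23.9 FPKM in RD7 (-0.74 ± 0.22 on the log2 scale, limma adjusted p = 0.03), and its call was lost when leaving out R 2 (0.055), R 3 (0.12), RD7 2 (0.11) or RD7 3 (0.096), with the limma adjusted p in brackets. Krt17 fell from 657 ± 56.7 to 329.8 ± 38.2 FPKM (-1.0 ± 0.14, limma adjusted p = 0.00043). Igfbp3, which binds insulin-like growth factors, stood at 15.2, 17.3 and 16.6 FPKM in R and 3.89, 3.28 and 3.35 FPKM in RD7 (-2.07 ± 0.13 on the log2 scale, limma adjusted p = 1.6e-06). Itga6, a laminin-binding integrin often used to sort basal cells, fell from 36.1 ± 4.24 to 15.5 ± 3.87 FPKM, and Aqp3, a water and glycerol channel of basal layers, from 143 ± 7.57 to 54.8 ± 3.93 FPKM.

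Keratins and squamous genes showed the same lean. Of 22 keratins tested, 11 fell (50%, against 17.7% of all genes). The 3 that rose (13.6%, near the 13.4% of all genes) were Krt19, Krt7 and Krt78. Krt7, a keratin of simple epithelium, rose from 99.4 ± 8.49 to 263 ± 40.3 FPKM, while Krt6b fell from 21.7 ± 1.83 to 3.05 ± 0.132 FPKM, Krt16 from 108 ± 7.5 to 31.5 ± 3.22 FPKM and Krt23 from 55.9 ± 6.09 to 17.9 ± 1.62 FPKM. Krt7 is typical of glandular cells, and Krt6b and Krt16 are keratins of activated or stratified epithelium. Of 41 squamous differentiation genes tested, 27 fell (65.9%) and 4 rose, with a median of -0.85, and the rises, those of Anxa8, Krt78, Krtdap and Spink5, numbered 2 without R 2, R 3, RD7 2 or RD7 3. Sprr2f, a small proline-rich envelope protein with near-identical family members, stood at 53.3, 31.8 and 36 FPKM in R and 1.84, 3.01 and 2.24 FPKM in RD7 (-3.82 ± 0.27 on the log2 scale, limma adjusted p = 4.2e-06). Rptn, which encodes repetin, stood at 5.18, 4.83 and 5.55 FPKM in R and 0.0944, 0.177 and 0.0571 FPKM in RD7 (-3.23 ± 0.16 on the log2 scale, limma adjusted p = 2.3e-07). Calm4, a calcium-binding protein of stratified epithelium, fell from 29.8 ± 8.01 to 2.84 ± 0.465 FPKM and Crct1 from 11.9 ± 3.48 to 1.28 ± 0.209 FPKM. Against them Spink5, an inhibitor of epidermal proteases, stood at 6.56, 6.45 and 5.68 FPKM in R and 64.7, 64.2 and 89.5 FPKM in RD7 (3.43 ± 0.18 on the log2 scale, limma adjusted p = 4.8e-07).

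Further genes of the cornified layer, singled out after their values were seen, fell as well. Ivl, the envelope protein involucrin, stood at 167, 174 and 154 FPKM in R and 25.3, 23 and 32.6 FPKM in RD7 (-2.60 ± 0.16 on the log2 scale, limma adjusted p = 1.3e-06). Crnn, which encodes cornulin, stood at 67.1, 72.3 and 60.5 FPKM in R and 5.66, 9.01 and 7.36 FPKM in RD7 (-3.12 ± 0.21 on the log2 scale, limma adjusted p = 3e-06). Of the kallikrein proteases that cut junctions between shedding cells, Klk7 fell from 5.25 ± 0.57 to 0.388 ± 0.156 FPKM, Klk10 from 9.96 ± 0.964 to 0.528 ± 0.248 FPKM and Klk13 from 6.32 ± 0.161 to 0.159 ± 0.0594 FPKM, and these 3 genes lie near each other on chromosome 7. Asprv1, a skin protease, fell from 19.8 ± 1.81 to 2.04 ± 0.613 FPKM. Sprr1a, with a large loss in level, fell from 409.6 ± 88.3 to 184 ± 39.4 FPKM, a call that was lost without R 1 (0.061) or RD7 3 (0.064), with the limma adjusted p in brackets.

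Adhesion genes moved both ways. Of 25 tight junction and claudin genes tested, 10 rose (40%) and 2 fell (8%), with a median of 0.36. Of 37 genes for desmosomes, hemidesmosomes, laminins and integrins, 4 rose (10.8%) and 13 fell (35.1%), with a median of -0.54. Of all genes, 13.4% rose and 17.7% fell. The difference between the lists was not tested. The falls of the first list were those of Pard3 and Pard6b, and the rises of the second those of Col4a1, Itgb5, Itgb8 and Pkp2. Cldn3 stood at 114, 121 and 96.7 FPKM in R and 330.4, 449 and 418 FPKM in RD7 (1.84 ± 0.19 on the log2 scale, limma adjusted p = 6.3e-05), Cgnl1, which links junctions to the cytoskeleton, rose from 1.44 ± 0.134 to 4.1 ± 0.499 FPKM, and Cldn1 rose from 7.93 ± 1.23 to 17.8 ± 4.75 FPKM. Dsc3, a desmosomal cadherin of basal layers, stood at 34.3, 29.97 and 41.8 FPKM in R and 10.6, 6.07 and 6.54 FPKM in RD7 (-2.15 ± 0.24 on the log2 scale, limma adjusted p = 0.00011). Lamb1, a laminin chain, fell from 7.45 ± 1.93 to 1.35 ± 0.564 FPKM and Dsc2 from 49.5 ± 3.99 to 15.8 ± 3.69 FPKM. Pkp2, a plakophilin of simple epithelium, rose from 2.64 ± 0.287 to 6.36 ± 0.361 FPKM, and Col4a1, a basement membrane collagen, from 19.8 ± 5.59 to 50.6 ± 21.2 FPKM. Gja1, the gap junction protein connexin 43, had a large loss in level, from 264, 281 and 269.8 FPKM in R to 80.6, 65.6 and 62.4 FPKM in RD7 (-1.97 ± 0.15 on the log2 scale, limma adjusted p = 6.6e-06).

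At the bottom of the ranking stood a cytokine of epithelial origin. Tslp (chromosome 18, 32815383 to 32819797) encodes thymic stromal lymphopoietin, which barrier epithelia release to instruct dendritic cells and lymphocytes. It stood at 209.7, 193 and 174 FPKM in R and 1.87, 1.06 and 2.51 FPKM in RD7, a 106-fold fall (-6.43 ± 0.26 on the log2 scale, limma adjusted p = 8.9e-08), with BM at 47.5, 60.2 and 84.6 FPKM. The next gene of the 12 lowest, Thbs2, which encodes the matrix protein thrombospondin 2, stood at 13.5, 12.5 and 17.8 FPKM in R and 0.142, 0.133 and 0.060 FPKM in RD7 (-4.62 ± 0.23 on the log2 scale, limma adjusted p = 3.2e-07). Cd34, a sialomucin best known from blood progenitors and vessels, stood at 21.1, 23.3 and 21.3 FPKM in R and 0.981, 0.402 and 1.17 FPKM in RD7 (-4.10 ± 0.21 on the log2 scale, limma adjusted p = 4e-07), beside endothelial markers whose sum never passed 0.536 FPKM. Gas1, a membrane coreceptor for Hedgehog ligands, stood at 71.7, 75.2 and 78.5 FPKM in R and 5.83, 4.35 and 3.8 FPKM in RD7 (-3.89 ± 0.17 on the log2 scale, limma adjusted p = 1.3e-07). Stc1, a stanniocalcin, stood at 9.16, 9.73 and 10.2 FPKM in R and 0.149, 0.266 and 0.0158 FPKM in RD7. Inhbb, a subunit of activin and inhibin, fell 26.8-fold from 16.2 ± 1.98 to 0.605 ± 0.126 FPKM, and Pthlh, the parathyroid hormone-related protein, 20.5-fold from 22.6 ± 2.32 to 1.1 ± 0.328 FPKM. Mmp3, a matrix metalloproteinase, fell from 20.2 ± 1.61 to 1.05 ± 0.476 FPKM, Aqp4, a water channel, from 9.25 ± 0.243 to 0.274 ± 0.104 FPKM, and Car8, a carbonic anhydrase relative that lacks enzyme activity, from 38 ± 2.76 to 3.13 ± 0.226 FPKM. C2cd4b fell from 8.38 ± 1.29 to 0.295 ± 0.0522 FPKM, but shares 47.2% of its exon bases with M5C1000I18Rik.

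Tslp was not alone among alarmins and epithelial cytokines. Of 21 tested, 13 fell (61.9%) and 3 rose, with a median of -0.85, and the rises, those of Ccl5, Il15 and Il34, numbered 1 among the 17 members with a mean of at least 1 FPKM. Il1f9, a member of the interleukin-36 family, stood at 8.63, 11.5 and 10.8 FPKM in R and 1.49, 2.76 and 2.37 FPKM in RD7 (-2.01 ± 0.22 on the log2 scale, limma adjusted p = 0.0001). Il1f6, of the same family, fell from 2.01 ± 0.811 to 0.332 ± 0.115 FPKM, and Il23a, a subunit of interleukin-23, from 1.7 ± 0.429 to 0.11 ± 0.0478 FPKM. Il15, which sustains natural killer and memory T cells, rose from 0.316 ± 0.062 to 2.11 ± 0.521 FPKM, and Ccl5, a chemokine, from 0.601 ± 0.115 to 1.98 ± 0.271 FPKM. The mucosal chemokine gene Ccl28, singled out after its values were seen, stood at 0.134, 0 and 0.0618 FPKM in R and 10.6, 5.59 and 7.59 FPKM in RD7 (3.86 ± 0.21 on the log2 scale, limma adjusted p = 5.6e-07).

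Acute-phase and antimicrobial genes moved strongly in both directions. Of 30 tested, 14 rose (46.7%) and 8 fell (26.7%), with a median of 0.53. Lbp, the lipopolysaccharide-binding protein, stood at 20.9, 21.9 and 19.6 FPKM in R and 281, 296 and 316 FPKM in RD7 (3.81 ± 0.13 on the log2 scale, limma adjusted p = 2.4e-08). Cxcl17, a mucosal chemokine with antimicrobial activity, stood at 0.494, 0.339 and 0.182 FPKM in R and 12.9, 21.4 and 17.2 FPKM in RD7 (4.39 ± 0.32 on the log2 scale, limma adjusted p = 4.7e-06). Lcn2, which withholds iron from bacteria, stood at 103, 77.4 and 73 FPKM in R and 503, 672 and 585 FPKM in RD7 (2.79 ± 0.30 on the log2 scale, limma adjusted p = 6.9e-05). Saa1, serum amyloid A, singled out after its values were seen, rose from 0.155 ± 0.0918 to 8.42 ± 1.42 FPKM. In the other direction, Cxcl5, a neutrophil chemokine, stood at 321, 329 and 299 FPKM in R and 71.1, 66.9 and 82.7 FPKM in RD7 (-2.10 ± 0.18 on the log2 scale, limma adjusted p = 1.2e-05). Chil1, a chitinase-like lectin, fell from 6.11 ± 0.348 to 0.586 ± 0.108 FPKM and Reg3g, an antibacterial lectin, from 2.19 ± 0.639 to 0.0627 ± 0.0443 FPKM. All RD7 libraries lay on 1 side of all R libraries for each of these genes.

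Interferon-stimulated genes rose in part. Of 32 tested, 10 rose (31.2%) and 4 fell (12.5%), where 13.4% of all genes rose and 17.7% fell, and the median was 0.14. The falls, Ifit3, Ifit3b and Mx1 among them, numbered 2 without R 2. Isg15, a ubiquitin-like protein, rose from 15.3 ± 3.77 to 44.6 ± 11.2 FPKM, and Oasl2, an oligoadenylate synthetase relative, from 7.51 ± 0.454 to 20.2 ± 0.871 FPKM, while Mx1, an antiviral GTPase, fell from 1.27 ± 0.078 to 0.514 ± 0.134 FPKM. Of 17 antigen presentation genes tested, 6 rose (35.3%) and 2, Cd1d1 and H2-M3, fell (11.8%). The rises numbered 2 without R 2, 2 without R 3, 1 without RD7 2 and 2 without RD7 3. B2m, the light chain of class I molecules, stood at 162, 119 and 117 FPKM in R and 559, 797 and 647 FPKM in RD7 (2.33 ± 0.34 on the log2 scale, limma adjusted p = 0.00066). Cd1d1, which presents lipids, fell from 3.48 ± 0.376 to 1.32 ± 0.127 FPKM (-1.12 ± 0.14, limma adjusted p = 0.00024).

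Although R-spondin1 was present in both groups, many Wnt target genes were lower with DHT. Of 31 tested, 16 fell (51.6%) and 6 rose, with a median of -0.51, and 9 fell of the 20 members with a mean of at least 1 FPKM. Lgr5, a receptor for R-spondins, stood at 0.714, 0.997 and 0.972 FPKM in R and 0.0109, 0 and 0.0288 FPKM in RD7 (-1.44 ± 0.11 on the log2 scale, limma adjusted p = 4.5e-06), with BM at 0.015, 0.00807 and 0.00497 FPKM. Notum, an enzyme that inactivates Wnt ligands, stood at 1.87, 2.0 and 1.15 FPKM in R and 0.186, 0.196 and 0.0492 FPKM in RD7 (-1.74 ± 0.19 on the log2 scale, limma adjusted p = 8.6e-05), and shares 38.1% of its exon bases with the antisense genes Myadml2os and Notumos. Apcdd1, a membrane inhibitor of Wnt signaling, stood at 21.9, 23.6 and 22.3 FPKM in R and 3.21, 5.24 and 2.18 FPKM in RD7 (-2.58 ± 0.28 on the log2 scale, limma adjusted p = 7.5e-05). Ephb2, an ephrin receptor, fell from 2.16 ± 0.645 to 0.399 ± 0.0901 FPKM. Sp5, a zinc finger repressor, ran the other way, from 2.95, 2.87 and 2.35 FPKM in R to 8.99, 9.47 and 7.33 FPKM in RD7 (1.49 ± 0.16 on the log2 scale, limma adjusted p = 6.9e-05), with BM at 8.2, 6.47 and 6.97 FPKM. Lef1 was also among the rises, from 0.388 ± 0.0805 to 1.13 ± 0.227 FPKM. Axin2 was among the 9 members not called. It stood at 3.88, 3.36 and 5.59 FPKM in R and 4.64, 3.49 and 3.79 FPKM in RD7. In BM, Axin2 stood at 0.391, 0.346 and 0.315 FPKM.

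Among Wnt ligands, receptors and secretion genes, 13 of 28 tested fell (46.4%, against 17.7% of all genes) and 2, Fzd9 and Wnt9a, rose (median -0.37). The falls numbered 8 without R 2 and 8 without R 3. Wnt5a, a ligand best known for signaling without beta-catenin, stood at 4.98, 5.76 and 5.53 FPKM in R and 0.507, 0.328 and 0.341 FPKM in RD7 (-2.73 ± 0.15 on the log2 scale, limma adjusted p = 4.4e-07). Wnt3a, a ligand that acts through beta-catenin, fell from 1.2 ± 0.113 to 0.148 ± 0.189 FPKM. Of the Frizzled receptors, Fzd10 fell from 4.31 ± 1.22 to 0.911 ± 0.322 FPKM and Fzd7 from 30.2 ± 4.45 to 10.1 ± 3.26 FPKM, while Fzd9 rose from 0.568 ± 0.132 to 1.62 ± 0.136 FPKM. Sostdc1, a secreted inhibitor of BMP and Wnt ligands singled out after its values were seen, stood at 0.644, 0.884 and 0.527 FPKM in R and had 0 reads in RD7, at least 21.6-fold lower than R at the level of 3 reads over the RD7 libraries.

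Ligands of the EGF receptor and feedback genes of the ERK cascade fell in large share, in medium that held EGF in both groups. Of 27 tested, 13 fell (48.1%) and 1 rose, with a median of -0.61. Ereg, the ligand epiregulin, stood at 4.37, 4.97 and 4.97 FPKM in R and 0.745, 0.52 and 0.889 FPKM in RD7 (-2.12 ± 0.21 on the log2 scale, limma adjusted p = 4.7e-05). Epgn, the ligand epigen, fell from 8.45 ± 1.45 to 2.03 ± 0.14 FPKM and Hbegf from 31.7 ± 4.15 to 9.87 ± 0.923 FPKM. Dusp4, a phosphatase that switches off ERK, stood at 15.5, 14 and 17.1 FPKM in R and 4.51, 5.66 and 3.54 FPKM in RD7 (-1.68 ± 0.18 on the log2 scale, limma adjusted p = 8.8e-05). Egf itself was the gene that rose, from 0.0222, 0.0496 and 0.041 FPKM in R to 2.37, 1.11 and 1.51 FPKM in RD7 (1.97 ± 0.18 on the log2 scale, limma adjusted p = 2.4e-05). Immediate-early genes, which such signaling can induce, were listed together with heat-shock genes. Of the 31 tested, 6 rose (19.4%, against 13.4% of all genes) and 10 fell (32.3%, against 17.7%). The rises numbered 3 without R 1, 2 without R 3 and 2 without RD7 2. The falls numbered 6 without R 1, 5 without R 2, 6 without R 3 and 5 without RD7 2. Egr3 fell from 3.95 ± 1.14 to 0.121 ± 0.0726 FPKM and Fos from 18.9 ± 1.99 to 8.51 ± 0.565 FPKM, while Hspb1, a small heat-shock protein, stood at 141, 95.1 and 98.6 FPKM in R and 411, 605 and 443 FPKM in RD7 (2.12 ± 0.30 on the log2 scale, limma adjusted p = 0.00054).

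Genes of the BMP and TGF-beta pathways were called lower at a share above that of all genes (17.7%, with 13.4% higher), with Noggin and A83-01 in both media. Of 30 BMP and TGF-beta response genes tested, 13 fell (43.3%) and 3, Bambi, Ccn2 and Id2, rose (median -0.46). Tgfb3, a TGF-beta ligand, stood at 8.66, 8.14 and 9.56 FPKM in R and 1.19, 0.727 and 0.507 FPKM in RD7 (-2.86 ± 0.23 on the log2 scale, limma adjusted p = 1e-05). Ltbp2, a matrix protein related to those that store TGF-beta, fell from 1.99 ± 0.605 to 0.149 ± 0.0746 FPKM and the ligand gene Bmp3 from 1.31 ± 0.125 to 0.108 ± 0.0674 FPKM. Id2, a helix-loop-helix inhibitor, rose from 41.4 ± 5.36 to 95.2 ± 14 FPKM, and Ccn2, a matricellular protein, from 14.4 ± 0.88 to 27.2 ± 2.22 FPKM, far under its BM values of 178, 143 and 153 FPKM, and 23.2% of its exon bases overlap Gm15270. Of 19 Notch pathway genes, 5 fell (26.3%) and none was called higher, and the falls, those of Dll1, Hey1, Jag1, Jag2 and Nrarp, numbered 3 without R 3, 3 without RD7 2 and 3 without RD7 3. Nrarp, a feedback inhibitor of Notch, fell from 59.5 ± 2.26 to 27.8 ± 5.18 FPKM, though it shares 79.4% of its exon bases with Gm38287. Of 23 YAP and TAZ target genes, 7 fell (30.4%) and 2, Ccn2 and F3, rose, and the falls numbered 3 with no filter on low values, 4 with median-of-ratios scaling, 4 without R 1, 3 without R 2, 4 without R 3, 3 without RD7 2 and 3 without RD7 3. Axl, a receptor tyrosine kinase, fell from 60.3 ± 4.85 to 27.1 ± 7.49 FPKM. Nothing is read from the Notch and YAP counts, which rested on single libraries.

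Genes of DNA replication and mitosis were lower with DHT, with no member called higher. Of 32 replication genes tested, 21 fell (65.6%, where 17.7% of all genes fell; median -0.68). Of 29 mitosis genes, 19 fell (65.5%, median -0.65). Mcm4, a subunit of the replicative helicase, stood at 77.7, 87.9 and 91.5 FPKM in R and 45.6, 35.2 and 32.8 FPKM in RD7 (-1.18 ± 0.16 on the log2 scale, limma adjusted p = 0.00033). Uhrf1, which maintains DNA methylation after replication, fell from 64.5 ± 8.17 to 30.9 ± 6.72 FPKM, Mcm10 from 4.97 ± 0.414 to 2.29 ± 0.408 FPKM and Cdc6, a licensing factor, from 8.36 ± 0.997 to 4.07 ± 0.551 FPKM. Kif23, a kinesin of cytokinesis, stood at 17.2, 16.5 and 15.9 FPKM in R and 7.47, 6.49 and 6.9 FPKM in RD7 (-1.19 ± 0.12 on the log2 scale, limma adjusted p = 4e-05). Anln, a ring protein of cytokinesis, fell from 13.6 ± 1.82 to 7.2 ± 1.93 FPKM, and Ttk, a spindle checkpoint kinase, from 7.85 ± 0.282 to 4.04 ± 0.574 FPKM. Mki67, the proliferation marker Ki-67, stood at 10.5, 11.1 and 11.6 FPKM in R and 8.23, 6.05 and 13 FPKM in RD7, with overlapping groups and no call (-0.33 ± 0.27 on the log2 scale, limma adjusted p = 0.38). These folds were modest beside those of the secretory genes, and that of Kif23 was 2.38-fold.

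Growth control genes outside these lists were less uniform. Of 24 D-type cyclins, CDK inhibitors and related genes, 2, Cdkn1c and Tob1, rose (8.3%, against 13.4% of all genes) and 8 fell (33.3%, against 17.7%). The falls numbered 4 with no filter on low values, 5 with replicate block, 4 without R 1, 4 without R 2, 3 without R 3, 4 without RD7 2 and 4 without RD7 3. Cdkn1c, the CDK inhibitor p57, which shares 30.7% of its exon bases with Gm44732, rose from 12.9 ± 1.63 to 30.8 ± 5.18 FPKM (1.21 ± 0.17, limma adjusted p = 0.00054), and Cdkn2b, the CDK inhibitor p15, stood at 29.5, 30.2 and 24.1 FPKM in R and 5.78, 6.65 and 6.42 FPKM in RD7 (-2.06 ± 0.16 on the log2 scale, limma adjusted p = 6.3e-06). Mycl, a Myc family gene, fell from 26.3 ± 1.0 to 13.6 ± 3.24 FPKM.

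Most of the genes listed for amino acid supply fell. Of 27 genes for serine synthesis and targets of the stress factor ATF4, 18 fell (66.7%) and 2 rose, with a median of -0.84. Asns, asparagine synthetase, stood at 171, 178 and 160.5 FPKM in R and 48.3, 59.4 and 51.6 FPKM in RD7 (-1.67 ± 0.14 on the log2 scale, limma adjusted p = 1e-05). Aldh1l2, a mitochondrial folate enzyme, fell from 5.69 ± 0.999 to 0.717 ± 0.419 FPKM, Slc7a11, the cystine carrier, from 12 ± 0.888 to 2.43 ± 0.652 FPKM, and Chac1, which degrades glutathione, from 39.2 ± 3.17 to 11.6 ± 1.16 FPKM. Cbs, which makes cystathionine, rose from 12.2 ± 0.261 to 23.4 ± 0.315 FPKM, and Atf3, a stress-induced leucine zipper factor, from 2.69 ± 0.38 to 5.24 ± 1.19 FPKM.

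Hypoxia and glycolysis genes leaned down in part. Of 32 tested, 11 fell (34.4%), 1 rose (3.1%) and 20 were not called (median -0.28). Most of the glycolytic enzymes listed were not called: Aldoa, Eno1, Gapdh, Gpi1, Hk1, Hk2, Ldha, Pfkl, Pgam1, Pgk1 and Tpi1 among them. Of these enzymes Pfkp and Pkm fell, and the call of Pkm was lost without any 1 of the R or RD7 libraries. Car9, a carbonic anhydrase that hypoxia induces, stood at 77.2, 84.6 and 79.2 FPKM in R and 13, 17.1 and 12.3 FPKM in RD7 (-2.48 ± 0.14 on the log2 scale, limma adjusted p = 7.7e-07). Car12, of the same family, fell from 31.1 ± 3.07 to 11.3 ± 1.84 FPKM, Vegfa, the vessel growth factor, from 46.2 ± 3.25 to 19.99 ± 3.58 FPKM, and P4ha1, a collagen hydroxylase, from 31.6 ± 0.769 to 15.3 ± 0.806 FPKM. Pfkfb4, a regulator of glycolysis, rose from 0.988 ± 0.121 to 2.88 ± 0.918 FPKM.

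Lipid genes are set beside the 13.4% of all genes that rose and the 17.7% that fell. Of 25 sterol synthesis genes, 2, Pmvk and Tm7sf2, rose (8%) and 6 fell (24%), and of 28 genes for fatty acid synthesis and lipid storage, 5 rose (17.9%) and 5 fell (17.9%). In the second list the rises were those of Acsl1, Agpat2, Elovl7, Scd1 and Thrsp and the falls those of Acsl3, Elovl6, Fads1, Plin2 and Pparg. Its rises numbered 3 without RD7 1 and 3 without RD7 3, and its falls 3 without R 1, 3 without R 2 and 3 without RD7 2. Thrsp, a lipogenic gene, rose from 0.0714 ± 0.0471 to 1.88 ± 0.239 FPKM, and Pparg, a nuclear receptor of fat cell differentiation, fell from 5.92 ± 0.307 to 2.42 ± 0.356 FPKM.

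Polyamines and zinc are abundant in prostate fluid, and their genes were looked at for that reason. Of 18 polyamine genes tested, 4, Arg2, Azin1, Paox and Sbp, rose (22.2%) and 6 fell (33.3%), where 13.4% of all genes rose and 17.7% fell. Arg2, the mitochondrial arginase, stood at 5.05, 6.02 and 4.91 FPKM in R and 60.5, 77.9 and 78.4 FPKM in RD7, a 13.6-fold rise (3.64 ± 0.15 on the log2 scale, limma adjusted p = 9.6e-08), and shares 19.96% of its exon bases with Vti1b. Arg1, the cytosolic arginase, fell from 96.7 ± 10.2 to 49.8 ± 7.43 FPKM, and Odc1, the first enzyme of polyamine synthesis, from 59.9 ± 1.88 to 32.8 ± 4.27 FPKM. Of 22 zinc, metallothionein and citrate genes, 6 rose (27.3%) and 4 fell (18.2%, near the share of all genes). The falls, those of Cs, Slc30a4, Slc39a10 and Slc39a6, numbered 2 without R 2, 1 without R 3 and 2 without RD7 2. Mt2 rose from 30.2 ± 8.55 to 144 ± 47.2 FPKM, though it shares 73.5% of its exon bases with Gm45774. Slc30a2, which exports zinc into vesicles, stood at 0.0176, 0.0845 and 0.143 FPKM in R and 1.29, 0.881 and 1.01 FPKM in RD7 (1.42 ± 0.14 on the log2 scale, limma adjusted p = 3.8e-05).

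Enzymes of oxidation and conjugation were called in both directions. Of 48 glutathione, oxidation and conjugation genes tested, 17 rose (35.4%, against 13.4% of all genes) and 8 fell (16.7%, near the 17.7% of all genes). The rises numbered 11 without RD7 2. Adh1, an alcohol dehydrogenase that also oxidises retinol, stood at 1.4, 1.48 and 1.26 FPKM in R and 35.6, 48.2 and 50.1 FPKM in RD7 (4.57 ± 0.20 on the log2 scale, limma adjusted p = 1.2e-07), with BM at 41.1, 27.6 and 44.1 FPKM. R thus held the low values, and BM and RD7 lay at like levels. Aldh1a1, which makes retinoic acid, stood at 15, 16.5 and 15.3 FPKM in R and 170.3, 169 and 213 FPKM in RD7 (3.51 ± 0.16 on the log2 scale, limma adjusted p = 2e-07), and its neighbour and close paralog Aldh1a7, singled out after its values were seen, rose from 5.83 ± 0.388 to 74.4 ± 6.37 FPKM. Gpx3, a secreted glutathione peroxidase, rose from 0.941 ± 0.17 to 10.6 ± 1.85 FPKM, while Aldh3a1 fell from 195 ± 16.5 to 57.9 ± 8.96 FPKM and Cyp1a1 from 3.63 ± 0.258 to 1.03 ± 0.435 FPKM.

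Transport and glycosylation genes moved in both directions at high rates. Of 34 water, ion and nutrient transport genes tested, 15 rose (44.1%) and 13 fell (38.2%), where 13.4% of all genes rose and 17.7% fell. Atp1b1, the beta-1 subunit of the sodium pump, which shares 18.7% of its exon bases with Nme7, stood at 23.3, 28.4 and 21.4 FPKM in R and 201, 199.6 and 183 FPKM in RD7 (2.98 ± 0.13 on the log2 scale, limma adjusted p = 1.5e-07), while Atp1b3, the beta-3 subunit, fell from 368, 387 and 349 FPKM in R to 177, 183 and 210.3 FPKM in RD7 (-0.95 ± 0.13 on the log2 scale, limma adjusted p = 0.00045). Slc26a4, the anion exchanger pendrin, stood at 0, 0.014 and 0.015 FPKM in R and 2.58, 3.32 and 2.62 FPKM in RD7 (2.70 ± 0.12 on the log2 scale, limma adjusted p = 1.2e-07; a ratio of reads of 267 with a 95% counting interval from 73.5 to 2212), and Kcnj15, a potassium channel, rose from 1.11 ± 0.16 to 6.45 ± 0.765 FPKM. Clca3a2, a chloride channel regulator, fell from 21.5 ± 0.364 to 3.9 ± 0.302 FPKM. Of 34 glycosyltransferases and mucins, 9 rose (26.5%) and 16 fell (47.1%). Beside the rises of Abo and B4galnt2, Has2, which makes hyaluronan, stood at 4.95, 5.09 and 5.08 FPKM in R and 0.251, 0.0371 and 0.237 FPKM in RD7 (-3.05 ± 0.22 on the log2 scale, limma adjusted p = 3.9e-06), Galnt6, which starts O-glycans, fell from 5.14 ± 0.229 to 0.549 ± 0.269 FPKM, and Fut1, a fucosyltransferase, from 4.22 ± 0.335 to 0.54 ± 0.182 FPKM. Of 29 serpins and other protease inhibitors, 10 rose (34.5%) and 4, Serpinb2, Serpinb3a, Serpinb8 and Serpinh1, fell (13.8%, under the share of all genes). Timp4, an inhibitor of metalloproteinases, rose from 0.0919 ± 0.0197 to 3.8 ± 0.561 FPKM, while Serpinh1, a collagen chaperone, fell from 98.8 ± 3.53 to 39.2 ± 3.1 FPKM.

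Ribosomal protein and oxidative phosphorylation genes rose in large numbers, and the counts depended on single libraries. Of 77 cytosolic ribosomal protein genes, 51 rose (66.2%, against 13.4% of all genes) and 0 fell (median 1.24). The count was 9 without R 2, 23 without R 3, 31 without RD7 1 and 10 without RD7 2, and 22 with no filter on low values. Rpl36, of the large subunit, stood at 42.3, 22.4 and 25 FPKM in R and 92.7, 133 and 69.9 FPKM in RD7 (1.71 ± 0.38 on the log2 scale, limma adjusted p = 0.008), and Rps26, of the small subunit, at 54.2, 22.8 and 34.2 FPKM in R and 121, 183 and 91.6 FPKM in RD7 (1.85 ± 0.44 on the log2 scale, limma adjusted p = 0.011). Of 78 oxidative phosphorylation genes, 51 rose (65.4%) and 1, Ndufs1, fell (median 1.24), and the rises numbered 26 without R 2 and 25 without RD7 2. Ndufc2, of complex I, stood at 41.9, 19.3 and 29.7 FPKM in R and 131, 208 and 117 FPKM in RD7 (2.33 ± 0.40 on the log2 scale, limma adjusted p = 0.0018), Cox6a1, of complex IV, at 67.3, 34.6 and 48.3 FPKM in R and 177, 284 and 144 FPKM in RD7, and Uqcr10, of complex III, at 25.1, 12.7 and 14.9 FPKM in R and 59.6, 89.2 and 54.6 FPKM in RD7.

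These genes are short, and gene length moved with the comparison. The median length of the ribosomal protein genes was 1726 bases and that of the oxidative phosphorylation genes 1551 bases, against 3563 bases for all genes tested. Across genes, which are not independent replicates, the log2 fold change had a Spearman correlation of -0.22 with length. The same correlation was 0.34 for R 3 against the other R libraries, 0.38 for RD7 1 and -0.38 for RD7 2 against the other RD7 libraries. Ribosomal protein genes held 0.963% to 1.39% of the reads in R and 1.68% to 2.01% in RD7. With the trend on length removed from each library, 50 ribosomal protein genes and 51 oxidative phosphorylation genes rose, with medians of 1.02 and 1.04. Medians of some other lists moved too. Those of acute-phase, proximal luminal and antigen presentation genes went from 0.53 to 0.27, 0.49 to 0.23 and 0.14 to 0.06. Those of alarmin and squamous genes went from -0.85 to -1.125 and from -0.85 to -1.005.

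**Figure D4:**
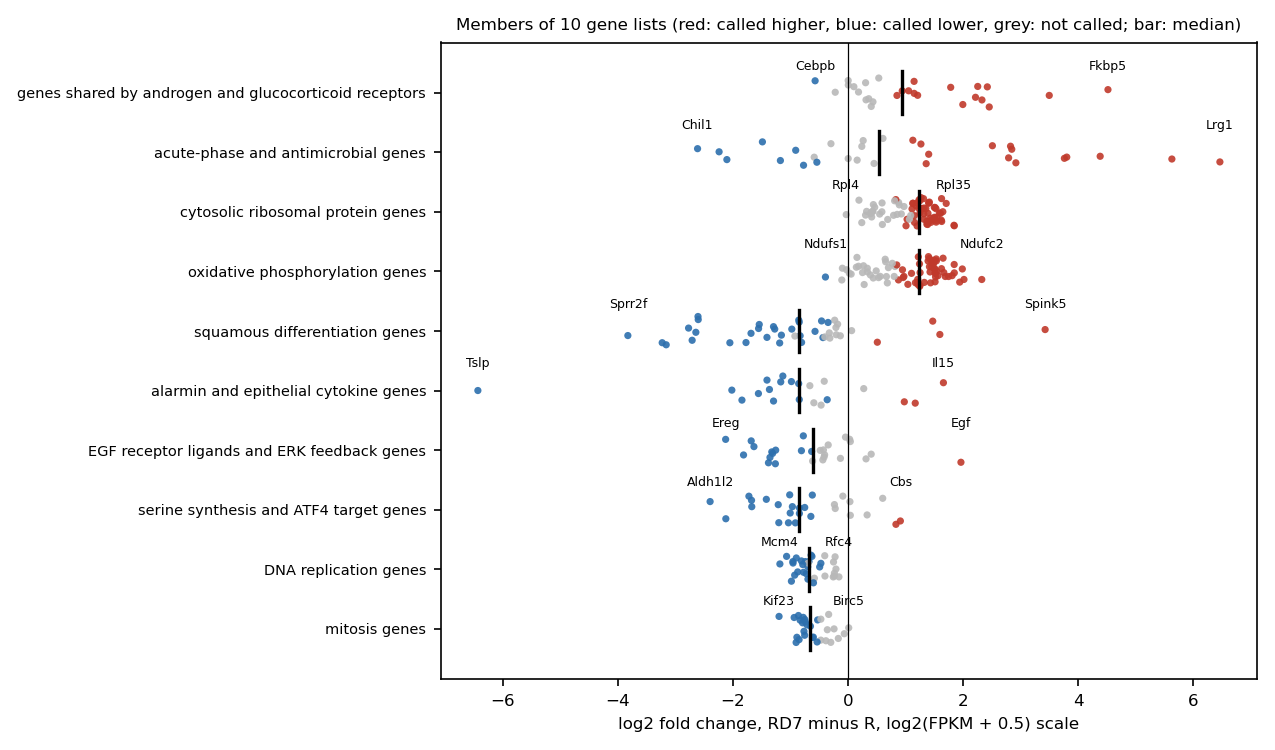
Each point is a tested member of a list and the horizontal axis is its log2 fold change, RD7 minus R, with red for called higher, blue for called lower, grey for not called, a black bar for the list's median and the names of the members at both ends. Ribosomal protein and oxidative phosphorylation genes gather around medians of 1.24 and 1.24, whereas replication and mitosis genes gather around -0.68 and -0.65 and acute-phase genes reach from -2.61 to 6.47.

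The genes that the naming rule covers were also ranked by their gain in mean FPKM, where Cbr2, Mmp7 and Krt19 stood highest. Mmp7, the metalloproteinase matrilysin, which cuts matrix and activates defensins, stood at 68.4, 59.9 and 51.7 FPKM in R and 1155, 1436 and 1558 FPKM in RD7, a gain of 1323 FPKM (4.51 ± 0.25 on the log2 scale, limma adjusted p = 7.2e-07). It shares 11.5% of its exon bases with the antisense gene AV064505, which rose from 76.1 ± 6.97 to 1704 ± 267 FPKM, and unstranded reads of the overlap belong to neither alone. Cbr2, a carbonyl reductase, gained 1577 FPKM, from 709 ± 105 to 2286 ± 282 FPKM (1.69 ± 0.25, limma adjusted p = 0.00062). Krt19 gained 1257 FPKM. Anxa1, an anti-inflammatory annexin, gained 652 FPKM, Bsg, the glycoprotein basigin, 643 FPKM, and Itm2b, a membrane protein, 568 FPKM. Among the largest losses, Krt5 fell by 1087 FPKM, Clu fell by 369 FPKM and Krt17 fell by 327 FPKM. Of the genes called, 183 that rose had a mean of at least 100 FPKM in RD7 and 117 that fell had one in R.

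Set beside BM, the medium without R-spondin1, RD7 values stood nearer to BM than R values did for some genes and further from it for others. These values are given side by side because both comparisons would share the R libraries, and no test was made of them. For Stc1, BM stood at 0.616, 0.487 and 0.286 FPKM, R at 9.16, 9.73 and 10.2 FPKM and RD7 at 0.149, 0.266 and 0.0158 FPKM, so that the R libraries alone were high. Krt16 was also highest in R, at 113, 113 and 99.8 FPKM. Unlike for Stc1, its RD7 values of 29.4, 29.9 and 35.2 FPKM lay above its BM values of 20.6, 22.9 and 26.9 FPKM. For Gas1, BM was highest at 151, 132 and 111 FPKM, followed by R and then RD7. Gsdmc2, a gasdermin, read 115, 118 and 105 FPKM in BM, 7.82, 7.32 and 7.12 FPKM in R and 0.41, 0.407 and 0.281 FPKM in RD7, a stepwise decline. Upk3a, a urothelial plaque protein, was at 87.1, 69.6 and 122 FPKM in BM and far below that in R at 1.87, 1.28 and 1.54 FPKM and in RD7 at 2.48, 3.79 and 2.46 FPKM.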

How the data were processed

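Polyadenylated RNA of flow-sorted basal cell organoids was made into SmartSeq cDNA and NEBNext Ultra II libraries, per the labels' protocols. Tools given by the submitters' processing notes, with no role stated, are STAR 2.6.1a, edgeR 3.24.1, featureCounts and CASAVA 1.9, the build is GRCm38, and the annotation release is not given in the sources used here. The authors deposited 1 FPKM value per gene and library. Symbols, lengths and coordinates were taken from GENCODE M21 (GRCm38), which matched 49326 of 49585 gene identifiers. Of 26813 genes above 0, 22971 gave whole reads, within 0.01 of a read, in every library when FPKM was multiplied by the annotated length and divided by the value of 1 read, and 3840 more did so with a fitted length. Reads read back in this way, 6505859 to 24141017 per library, served the filter on low values, the count of reads at low levels and the limma-voom alternative. Reads carry no molecular identifiers, so limits from them cover counting error only.

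Genes that reached 0.5 CPM in 3 or more libraries entered the test with limma 3.58.1 in R 4.3.3 on log2(FPKM + 0.5), with BM, R and RD7 each given a mean (9 libraries, 6 residual degrees of freedom), trended and robust empirical Bayes, and two-sided p-values of RD7 against R adjusted by Benjamini-Hochberg over all genes tested. The fit was tested on simulated data with known changes. A permutation test of 3 against 3 libraries cannot go below p = 0.1 and was not used. Counting intervals are exact binomial intervals at 95% from scipy.

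The genes named were 10 fixed genes, the 12 highest and 12 lowest fold changes and the 10 largest gains and losses in mean FPKM among called protein-coding genes whose R and RD7 values do not overlap and whose symbols do not start with Gm and a digit or end in Rik, and from each of 45 gene lists up to 4 called members in the main direction and 2 in the other; a further 31 genes were singled out after their values were seen, and some genes that the rule names are not reported here. The comparison and the gene lists were chosen with earlier results of these data known. Alternatives were 2 other pseudocounts, 2 other filters, median-of-ratios scaling, R and RD7 alone, the replicate number as a block, limma-voom, removal of the length trend, plain empirical Bayes and leaving out each library.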

Additional observations from a re-analysis of the deposited data

How the results depend on the processing

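Leaving out 1 library at a time, the count of genes called higher ranged from 1335 to 2625 and that of genes called lower from 1680 to 3104. Genes called higher numbered 1335 without RD7 2 and 1398 without R 2, and genes called lower numbered 1680 without R 3, 1765 without R 2 and 1803 without RD7 2, and the cause was not tested beyond there being fewer samples. Under the other alternatives both counts stayed within 1.5 times the reported ones. With a replicate block, 1739 genes were called higher and 2145 lower. Same-numbered R and RD7 libraries did not deviate together (correlations of -0.34, 0.11 and -0.09 over genes), so the numbers were not taken to pair the samples. Median-of-ratios scaling turned the share of rises among calls from 43.0% to 54%. Of the 247 named calls, 211 held under all 19 alternatives and 36 were lost under at least 1, and none changed direction. Vwf, which was not called, was the 1 named gene to change sign, to -0.34 with limma-voom. Depth limits low genes: 3 reads came to between 0.129 and 0.188 CPM in R and RD7.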

Other observations

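Some further genes, singled out after their values were seen, belonged to no list. Hgf, the hepatocyte growth factor gene, stood at 0.296, 0.371 and 0.238 FPKM in R and had 0 reads in RD7, at least 38.9-fold lower at the level of 3 reads over the RD7 libraries. Psors1c2 likewise stood at 2.82, 1.38 and 1.81 FPKM in R and had 0 reads in RD7. Mmp9, a gelatinase, fell from 2.85 ± 0.401 to 0.0427 ± 0.0481 FPKM (-2.62 ± 0.15, limma adjusted p = 6.5e-07). Enpp2, which makes lysophosphatidic acid, fell from 29.9 ± 1.72 to 2.48 ± 0.386 FPKM (-3.36 ± 0.14, limma adjusted p = 8.9e-08), and Cd200, a surface protein that restrains myeloid cells, from 11 ± 1.16 to 0.708 ± 0.263 FPKM (-3.27 ± 0.20, limma adjusted p = 1e-06). Habp2, a plasma protease gene, ran the other way, with 0 reads in R and 8.26, 7.03 and 8.55 FPKM in RD7, at least 515-fold higher on the same reckoning. R and RD7 libraries did not overlap for any of these 6 genes.

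Genes annotated as antisense made up 254 of the 4937 calls. How many antisense genes were tested is not given here, so this count cannot be set beside the 31.1% of all genes called. Gm16559, antisense to Adh1, rose from 0.811 ± 0.174 to 24 ± 4.49 FPKM, and its reads cannot be told apart from those of Adh1 where the 2 overlap, since strand was not marked.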
